A study of Mus musculus with 6 samples.

Results

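The angiopoietin-like genes, written Angptl, encode secreted proteins that carry a coiled-coil stretch and, in most members, a fibrinogen-like domain similar to that of the angiopoietins. The 5 genes described here, Angptl1, Angptl2, Angptl4, Angptl6 and Angptl8, were taken by gene symbol from a table of 25302 rows. They were chosen by name with the differences of their normalized counts between these groups already known, so the difference between the groups is given for them as a description, without a test. In cells of the Sox9cKO genotype, Angptl1 was nearly lost, at 2.77% of its Control level, and Angptl4 was 2.75-fold higher. Angptl6 was 2.09-fold lower on few reads, and Angptl2 and Angptl8 differed little.

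Despite the shared name, these proteins do not bind the Tie receptors through which angiopoietins act on blood vessels. ANGPTL4 and ANGPTL8 are inhibitors of lipoprotein lipase, the enzyme on capillary walls that frees fatty acids from circulating lipoproteins, and the liver makes both. ANGPTL1 is known as an inhibitor of blood vessel sprouting, ANGPTL2 as a promoter of inflammation and matrix remodelling, and ANGPTL6 as a growth factor made by the liver that opposes weight gain.

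The data were bulk RNA sequencing of intrahepatic biliary epithelial cells, the lining of the bile ducts within the liver, from mice. The Control group held 3 samples of the genotype Sox9fl/fl, in which both copies of the transcription factor gene Sox9 are flanked by loxP sites. The Sox9cKO group held 3 samples of the genotype Sox9fl/fl:AlbCre+/-, which adds a Cre recombinase driven by the albumin promoter, a promoter active in the embryonic liver cells that give rise to both hepatocytes and bile duct cells. Both groups therefore carried floxed Sox9, and the labels give no control with AlbCre alone, no age and no sex. The labels also do not state that the samples of a group came from separate animals. Each p-value therefore sets the group difference against the spread between these samples, which may be technical. In bulk RNA, fewer cells of a type and less RNA per cell cannot be told apart.

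Reads assigned to genes numbered between 11883496 and 16191990 per sample, and 1 read corresponded to between 0.841 and 1.15 normalized reads. Values below are normalized read counts unless stated, and a log2 difference is Sox9cKO minus Control on the log2(value + 1) scale. Sox9 itself read 6211, 6043 and 6293 in Control and 3363, 3165 and 3340 in Sox9cKO, so the direction in every library followed its label. The summed level of 12 biliary markers lay between 181702 and 231869 in Control and between 166614 and 233642 in Sox9cKO, above each of the other marker sums, and none of these 12 was at 0. The sum of 12 hepatocyte markers was lower in all Control samples (25054 to 38726) than in all Sox9cKO samples (47208 to 78331). The endothelial sum over 10 markers varied within the groups, from 2232 to 47888 in Control and from 8201 to 49732 in Sox9cKO. Sums of mesothelial markers (424 to 540 against 934 to 1883) and leukocyte markers (1058 to 1136 against 1512 to 1831) were small and higher in all Sox9cKO samples, while the sums of 12 fibroblast, stellate and smooth muscle markers overlapped (2267 to 3012 against 2473 to 5342). Single markers did not follow these sums throughout: the median log2 difference was 0.13 over 5 mesothelial markers and -0.57 over 6 tested leukocyte markers, of which only Csf1r had a positive difference.

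Of 17153 genes that averaged 10 or more normalized reads, 510 (2.97%) had an adjusted p under 0.05 (limma, Benjamini-Hochberg), 349 higher (2.03%) and 161 lower (0.939%) in Sox9cKO. The groups did not overlap for 4144 genes (24.2%). Same-numbered samples of the groups deviated together, and limma with the number as a block called 1381 genes. Without Control replicate 1, Control replicate 3, Sox9cKO replicate 2 or Sox9cKO replicate 3, the fit called 200, 210, 337 and 280 genes. All 5 members passed the level filter. Of these, 2 were past the threshold in this fit, Angptl1 lower and Angptl4 higher, and the groups did not overlap for 4, which describes the genes as chosen and is not read against these shares.

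**Figure D1:**
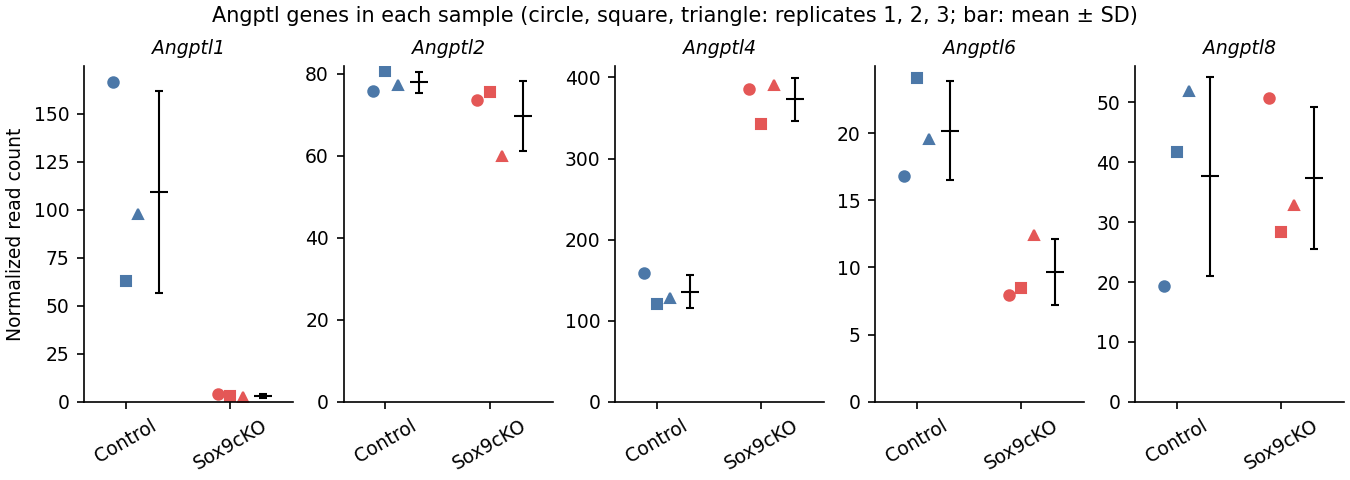
Normalized read count of each Angptl gene in each sample, with its own vertical axis from 0; circles, squares and triangles are replicates 1, 2 and 3, and bars give the mean ± SD (n = 3). Angptl1 was at 63.1 to 166 in Control and 2.26 to 3.98 in Sox9cKO, Angptl4 at 121 to 159 and 342 to 391, and the Angptl8 points of the groups overlap.

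Among the members known for acting on vessels and matrix, Angptl1 (ENSMUSG00000033544), the inhibitor of vessel sprouting, had the largest difference. It read 166, 63.1 and 97.9 in Control (mean 109 ± 52.6, SD, n = 3) and 3.98, 2.84 and 2.26 in Sox9cKO (3.03 ± 0.874, SD, n = 3). The lowest Control sample was thus far above the highest Sox9cKO sample, although the Control samples differed 2.64-fold among themselves. In reads, these are 198, 68 and 85 against 4, 3 and 2. The ratio of the summed reads, corrected for library size, was 36.7, with an exact binomial 95% interval of 19.1 to 80.8 that covers counting error only. The log2 difference was -4.69 (SE 0.43), which the pseudocount of 1 makes smaller than the change in reads. Only 7 tested genes, Angptl1 included, had a log2 difference this low or lower.

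The difference was of like size within each replicate number, with log2 differences of -5.07, -4.06 and -4.92 for replicates 1, 2 and 3. Control replicate 2, which had the lowest Control value of Angptl1, differed from the other Control samples in most marker sums. Of that group it had the highest endothelial sum (47888) and the highest fibroblast, stellate and smooth muscle sum (3012). Its biliary (181702), hepatocyte (25054) and mesothelial (424) sums were the lowest. The fibroblast, stellate and smooth muscle sums of the groups overlapped, at 2267 to 3012 in Control and 2473 to 5342 in Sox9cKO. None of the 11 tested markers of that list passed the threshold (limma; 0 at an unadjusted p under 0.05, and 0 with edgeR and with DESeq2). The part of other cell types in the level of Angptl1 was not tested.

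Angptl2 (ENSMUSG00000004105), the inflammation-linked member, shares more identical coding bases with Angptl1 than any other member does. It read 75.7, 80.7 and 77.2 in Control (77.9 ± 2.61, SD, n = 3) and 73.6, 75.6 and 60.0 in Sox9cKO (69.7 ± 8.49, SD, n = 3). The groups were barely separated, with the lowest Control sample at 75.65 and the highest Sox9cKO sample at 75.60, and only Sox9cKO replicate 3 stood clearly below the rest. The log2 difference was -0.16 (SE 0.20), smaller than its error.

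The coding sequences of Angptl1 and Angptl2 were compared because reads from near-identical stretches could be assigned to the wrong gene. In the GENCODE M21 annotation of GRCm38, the coding sequence was 1470 bases (490 codons without the stop) for Angptl1 and 1479 bases (493 codons) for Angptl2. Aligned, 981 of 1431 bases were identical (68.6%), against 454 of 593 (76.6%) for Angptl1 with the shorter Angptl8. Positions in gaps were not counted, so the percentages of Angptl8 are not comparable with those between the longer members. The longest identical run of Angptl1 and Angptl2 was 16 bases. That run is in capitals within the following 66 coding bases of each gene. For Angptl1 these lie in a coding exon at chr1:156844919-156844984 on the plus strand (coding bases 314 to 379), and for Angptl2 in a coding exon at chr2:33228544-33228609 on the plus strand (coding bases 329 to 394).
Angptl1: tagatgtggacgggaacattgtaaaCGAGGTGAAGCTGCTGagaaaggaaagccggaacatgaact
Angptl2: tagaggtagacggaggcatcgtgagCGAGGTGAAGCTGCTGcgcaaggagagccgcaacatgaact
The pair differs within a few bases on either side of the capitals. The read length is not given in the sources used here.

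Angptl6 (ENSMUSG00000038742), the hepatic growth factor, was the member with the fewest reads. It read 16.8, 24.1 and 19.6 in Control (20.2 ± 3.70, SD, n = 3) and 7.96, 8.51 and 12.5 in Sox9cKO (9.64 ± 2.45, SD, n = 3). All Sox9cKO samples lay below all Control samples, on 8, 9 and 11 reads against 20, 26 and 17. The log2 difference was -1.003 (SE 0.35). Among the members, its coding sequence shared the most identical bases (873 of 1350 aligned, 64.7%) and the longest identical run (25 bases) with that of Angptl2. With Angptl1, the identity was 60.0% and the longest run 14 bases. The shorter Angptl8 had a higher percentage, 74.2%, over fewer aligned bases (592), with a longest run of 10. Without gaps counted, Angptl8 had 74.2% to 76.6% with every other member, so this is not read as closeness to Angptl6.

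Among the lipase inhibitors, Angptl4 (ENSMUSG00000002289), which is induced by fasting, low oxygen and fatty acids in many tissues, was the member that was higher in Sox9cKO. It read 159, 121 and 128 in Control (136 ± 20.3, SD, n = 3) and 386, 342 and 391 in Sox9cKO (373 ± 26.8, SD, n = 3). The groups were far apart, and the spread within each was small beside the gap. The log2 difference was 1.46 (SE 0.16), and 422 tested genes (2.46%) had a difference this high or higher. Within replicates 1, 2 and 3 the log2 difference was 1.28, 1.496 and 1.603.

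The order of the 6 samples by Angptl4, within the groups as between them, was also their order by the hepatocyte marker sum. In Control the sums were 38726, 25054 and 29515 in replicates 1 to 3, and in Sox9cKO they were 61510, 47208 and 78331. Control replicate 2 thus had the lowest value of both measures and Sox9cKO replicate 3 the highest. Within Control, the biliary sum and Angptl1 also had the sample order of Angptl4, but within Sox9cKO neither did. Of the 12 hepatocyte markers, 2 rose in Sox9cKO, Apob, the main protein of lipoproteins made by the liver, and Tat, an enzyme of tyrosine breakdown (limma, adjusted p 0.00383 and 0.00726). Alb, the most abundant product of hepatocytes, had a log2 difference of 0.47 and an adjusted p of 0.380 (limma). The median log2 difference of the 12 markers was 0.42, against 0.04 for all tested genes, and none of the 12 was at 0. The part of hepatocyte RNA in the level of Angptl4 was not tested.

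Angptl8 (ENSMUSG00000047822), the insulin-responsive lipase inhibitor, lacks the fibrinogen-like domain and had the shortest coding sequence, 594 bases (198 codons without the stop) against 1230 (410 codons) for Angptl4. It read 19.3, 41.8 and 51.8 in Control (37.6 ± 16.6, SD, n = 3) and 50.7, 28.4 and 32.8 in Sox9cKO (37.3 ± 11.8, SD, n = 3). The groups overlapped fully and their means were nearly equal. The log2 difference was 0.05 (SE 0.43), and it pointed up within replicate 1 (1.35) and down within replicates 2 (-0.54) and 3 (-0.64). Leaving out single samples moved it between -0.35 and 0.33, so neither sign held.

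Angptl7, a further gene of the family that is best known from the eye, read 10.1, 15.8 and 9.22 in Control and 1.99, 6.62 and 2.26 in Sox9cKO. All Sox9cKO samples were below all Control samples for Angptl7, but its mean of 7.66 over the samples was under the minimum of 10, so it was not tested.

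To compare levels between genes, values were divided by the length of all annotated exons of each gene in kilobases. In Control, Angptl8 (43.5 ± 19.2 normalized reads per kb, SD, n = 3), Angptl1 (38.4 ± 18.5) and Angptl4 (38.4 ± 5.73) shared the top of the order without a difference beyond their spread. Angptl6 (12.8 ± 2.34) and Angptl2 (12.4 ± 0.416) followed, without a difference beyond their spread at these lengths, and Angptl7 (5.42 ± 1.65) was below all of these. For Angptl2 the length was 6286 bases over 4 transcripts, but the transcript with its longest coding sequence has 3339. Angptl6 has 1582 bases by either measure. The place of Angptl2 beside Angptl6, and the shares below, therefore depend on the length used. Against all tested genes of known length, Angptl1 and Angptl4 both stood near the middle, at percentile 45.6, in Control.

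In Sox9cKO the order of levels per kb was different at both ends. Angptl4 stood alone at the top with 105 ± 7.56 normalized reads per kb (percentile 68.7 of the tested genes), and Angptl8 followed with 43.1 ± 13.7. Angptl2 (11.1 ± 1.35) and Angptl6 (6.09 ± 1.55) came next and did not overlap. Angptl7 (1.68 ± 1.203) and Angptl1 (1.07 ± 0.307, percentile 0.641) were below these and did not differ beyond their spread. Angptl1 was thus in the top group of these genes in Control and in the bottom group in Sox9cKO.

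Expressed as a share of the summed reads per kb of the 5 members and Angptl7, Angptl1 accounted for 25.2% ± 11.6 in Control and 0.629% ± 0.140 in Sox9cKO (SD, n = 3). Angptl4 accounted for 25.4% ± 3.46 and 62.8% ± 3.90. The sum per kb was 153, 139.99 and 159 in Control and 187, 151 and 168 in Sox9cKO, so the groups overlapped in the sum although its make-up differed. The ratio of Angptl4 to Angptl1 per kb was 0.766, 1.53 and 1.05 in Control and 77.8, 96.8 and 138 in Sox9cKO. Shares of a total are not independent of each other, and a higher level of Angptl4 alone lowers the shares of the others.

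**Figure D2:**
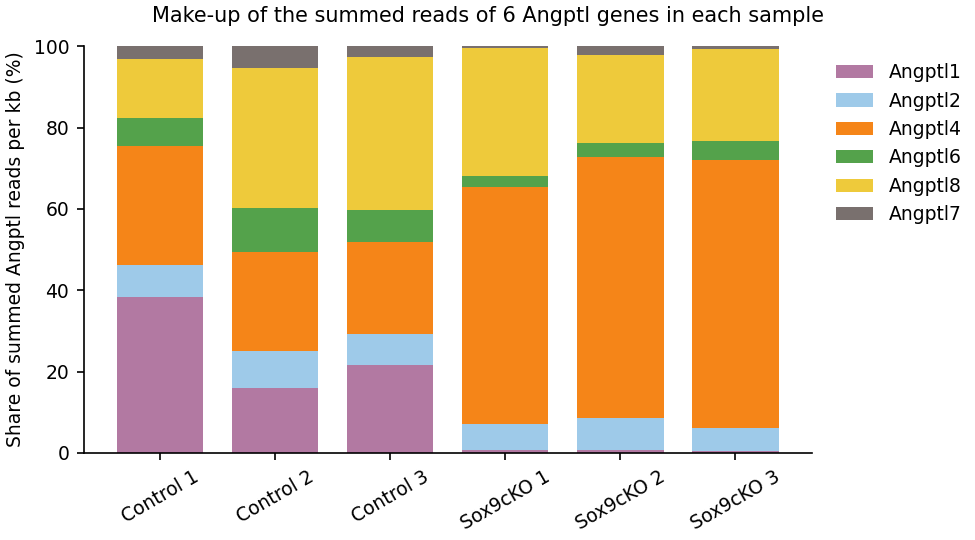
Share of each of the 5 members and Angptl7 in their summed reads per kb of exon, in percent, with 1 bar per sample. Angptl1 held 15.9% to 38.3% of the Control bars and under 1% of the Sox9cKO bars, and Angptl4 held 22.6% to 29.3% and 58.4% to 65.8%.

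Several Angptl genes lie inside an intron of a larger gene on the opposite strand. In the GENCODE M21 annotation, Angptl1 lies within Ralgps2, Angptl2 within Ralgps1 and Angptl8 within Dock6, with 0 shared exon bases in each case, and Angptl7 within Mtor likewise. These hosts encode exchange factors for small GTPases, apart from Mtor, the nutrient-sensing kinase. Whether the counting used the strand is not given in the sources used here, so intronic host reads and reads of the guest gene are told apart only as far as the counting did so.

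Ralgps2 read 435, 572 and 369 in Control and 488, 487 and 345 in Sox9cKO, a log2 difference of -0.05 (SE 0.21; limma, adjusted p 0.932). The host of Angptl1 therefore overlapped between the groups in which Angptl1 itself did not. Of the 3 hosts Ralgps1, Ralgps2 and Dock6, none passed the threshold with limma, with or without the replicate block, with edgeR or with DESeq2, and 0 had an unadjusted p under 0.05. Dock6, the host of Angptl8, had the largest difference of these (0.59, SE 0.34; limma, adjusted p 0.430), and the sign for Ralgps2 changed when single samples were left out.

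**Figure D3:**
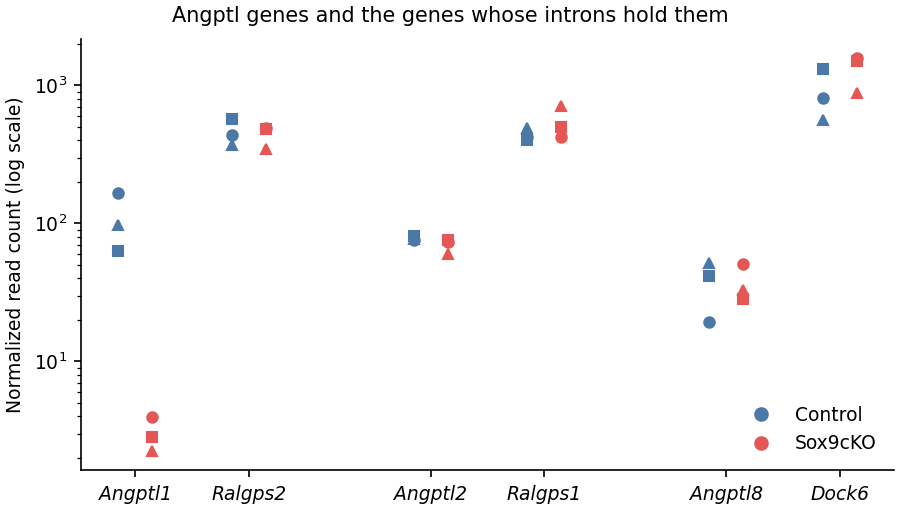
Normalized read count on a log scale for Angptl1, Angptl2 and Angptl8 and for the genes whose introns hold them; circles, squares and triangles are replicates 1, 2 and 3. Angptl1 is at 63.1 or more in Control and at 3.98 or less in Sox9cKO, while its host Ralgps2 lies between 345 and 572 in every sample.

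Angptl6 shares 265 of its 1582 exon bases (16.8%) with A230050P20Rik on the opposite strand, which read 200, 202 and 142 in Control and 265, 372 and 182 in Sox9cKO (log2 difference 0.55; limma, adjusted p 0.376). Reads from the shared bases cannot be told apart without the strand, and the partner gene had a mean in the direction opposite to that of Angptl6.

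The nearest tested protein-coding genes, 2 on each side of a member, were examined next. Of the 4 around Angptl1, from Fam20b to Rasal2, none passed the threshold (limma; 1 at an unadjusted p under 0.05, 0 with edgeR and 0 with DESeq2), with log2 differences from -0.51 to 0.21. Of the 4 around Angptl4 none passed it either (0 at an unadjusted p under 0.05, 0 with edgeR and 0 with DESeq2), with log2 differences from 0.02 to 0.24. Angptl1 and Angptl4 differed between the groups more than any of these neighbours did. They were chosen with their differences known and the neighbours by position, so this contrast is only a description. Over all 5 members, 4 of 20 neighbours had an unadjusted p under 0.05 (limma), and the replicate block called 3, 1 of them beside Angptl8. In the main fit 2 of the 20 rose (2 called with edgeR and 2 with DESeq2), both beside Angptl6 and both in the direction opposite to its own.

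These were Col5a3, a fibrillar collagen chain, and Olfm2, a secreted olfactomedin-domain protein, which were named after their values were seen. Col5a3 went from 19.4 ± 6.14 to 76.5 ± 9.07 (SD, n = 3; log2 difference 1.96; limma, adjusted p 0.0183), a call lost in 5 of the 6 fits without a sample, all but that without Control replicate 2 (adjusted p up to 0.0860). Olfm2 went from 39.0 ± 15.9 to 143 ± 25.5 (SD, n = 3; log2 difference 1.91; limma, adjusted p 0.0268), and its call was lost in 4 of these fits, without Control replicate 3 or any of the Sox9cKO samples (adjusted p up to 0.0980).

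The genes with the most similar pattern over the 6 samples were found by the root mean square distance between log2 profiles, each centred on its own mean. For Angptl1 the nearest was C2cd4b, a nuclear C2-domain gene, at a distance of 0.290 (log2). It read 235, 98.4 and 236 in Control and 7.96, 6.62 and 6.79 in Sox9cKO, so it too was lowest in replicate 2 among the Control samples. Fam181b (0.468) and Slc26a7, an anion exchanger (0.533), came next. Slc26a7 went from 54.6 ± 6.32 to 2.30 ± 1.35 (SD, n = 3). Fam181b, at 24.7 ± 7.08 in Control, had 0 reads in 2 of the 3 Sox9cKO samples.

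For Angptl4 the nearest were Rgs7, a regulator of G protein signalling (distance 0.0828), Vnn1, a pantetheinase (0.0991), and Itih2, a plasma protein made by hepatocytes (0.112). Vnn1 went from 294 ± 49.1 to 840 ± 40.01 and Itih2 from 2287 ± 489 to 6883 ± 1013 (SD, n = 3), while Rgs7 was rare, at 7.27 ± 1.004 and 20.5 ± 3.07. Pcnx, Snx24 and Aplf were nearest to Angptl2 (0.0361 to 0.0482), Mfsd4b5, Pygm and Hexim2 to Angptl6 (0.0584 to 0.122), and Gpsm3, Themis3 and Pop7 to Angptl8 (0.156 to 0.189). Likeness here describes these 6 samples, in which the group difference makes up most of the profile of Angptl1 and Angptl4.

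**Figure D4:**
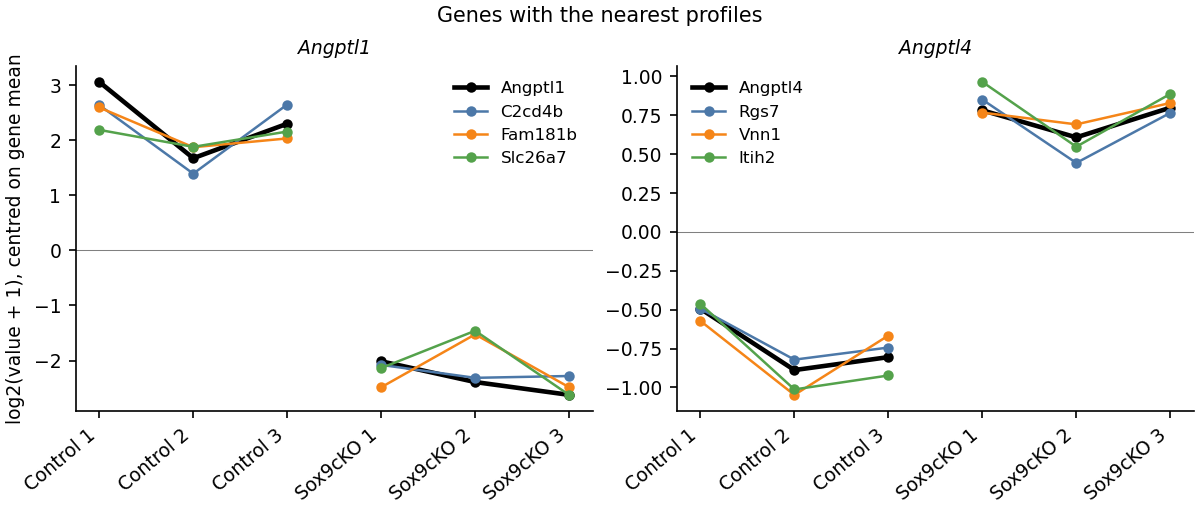
Profiles of log2(value + 1), each centred on its gene's mean over the 6 samples, for Angptl1 and Angptl4 (black) and the 3 genes nearest to each; lines join the samples of a group only to guide the eye. C2cd4b follows Angptl1 at a distance of 0.290, and Rgs7, Vnn1 and Itih2 follow Angptl4 at 0.0828 to 0.112.

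The angiopoietins and their Tie receptors, after which the family is named, were examined as 5 tested genes. Angpt1, which activates the receptor Tek and steadies vessels, read 793, 592 and 681 in Control and 323, 218 and 340 in Sox9cKO. It fell (log2 difference -1.24, SE 0.21; limma, adjusted p 0.0257), and the call was lost without Control replicate 1 (0.122), Control replicate 3 (0.0953) or Sox9cKO replicate 1 (0.0563) and without an intensity trend (0.0575). The other 4 did not pass the threshold. Tek went from 752 ± 762 to 1172 ± 727 (SD, n = 3; limma, adjusted p 0.629) and was highest in the samples with the highest endothelial sum, replicate 2 of each group. The median log2 difference of the 5 was 1.09, opposite in sign to the only change, and the 10 endothelial markers had a median of 1.07 with 0 called by limma (1 at an unadjusted p under 0.05, 0 with edgeR and 0 with DESeq2, and 2, Vwf and Egfl7, with the block).

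Among 11 tested lipases, cofactors and convertases, on which ANGPTL4 acts or which cut it, 1 rose and none fell. This was Pcsk6, a convertase that cleaves secreted precursors, which read 26.1, 26.9 and 28.8 in Control and 97.5, 114 and 135 in Sox9cKO (log2 difference 2.03, SE 0.22; limma, adjusted p 0.00553). Lpl, the lipase that ANGPTL4 inhibits, read 154, 85.4 and 63.4 in Control and 479, 189 and 256 in Sox9cKO and was named after its values were seen. All Sox9cKO samples were above all Control samples, with a log2 difference of 1.59 (SE 0.43), but the limma adjusted p was 0.110 (0.00698 with the replicate block, 0.122 with edgeR and 0.00545 with DESeq2). With the block, limma called 4 genes of this list, Lpl, Pcsk6 and Sel1l, which aids lipase folding, higher and the convertase Pcsk5 lower. Furin, the most abundant gene of the list, had a log2 difference of 0.29 (limma, adjusted p 0.208), and the list's median was 0.45.

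Of 5 receptors for lipoproteins and fatty acids, none passed the threshold (limma; 3 at an unadjusted p under 0.05, 0 with edgeR, 2 with DESeq2), and the block called 3, Vldlr, Lrp1 and Cd36, all higher. Cd36, the fatty acid transporter, was named after its values were seen. Cd36 read 363, 532 and 77.2 in Control and 2166, 2149 and 2223 in Sox9cKO. Its log2 difference was 3.14 (SE 0.64; limma, adjusted p 0.0504), and the adjusted p was 0.0135 with the block, 0.0626 with edgeR and 0.00437 with DESeq2. Of 17 alternatives to the main fit, 9 called Cd36. Leaving out single samples gave limma adjusted p-values from 0.00913, without Control replicate 3, the sample with the lowest value, to 0.131, and 4 of these 6 fits did not call it. Lrp1, an abundant receptor of this list, had a log2 difference of 0.78 (limma, adjusted p 0.119), which was also the list's median. Of 7 reported ANGPTL receptors, among them Pirb and the integrin chains, none was called (limma; 1 at an unadjusted p under 0.05, 0 with edgeR and 0 with DESeq2), and the block called Itga1 higher. All 7 had a positive log2 difference, with a median of 0.43.

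Known regulators of Angptl4 and Angptl8 were followed through their other targets. Of 10 listed PPAR factors and targets, which respond to fatty acids, none was called (limma; 3 at an unadjusted p under 0.05, 0 with edgeR and 1 with DESeq2), and the median log2 difference was 0.13. Lpl and Cd36, which the block called higher, were counted in the lists above and are not among these 10. The absence of limma calls therefore holds only for the genes listed. Of 14 hypoxia-inducible factors and targets, 1 rose, the glycolysis regulator Pfkfb3, from 2154 ± 184 to 4463 ± 754 (SD, n = 3; log2 difference 1.04; limma, adjusted p 0.0137). The call was lost without Control replicate 1 (0.0789) or Control replicate 3 (0.0629), and the abundant targets Vegfa (0.26; limma, adjusted p 0.440) and Ndrg1 (0.40; limma, adjusted p 0.298) were not called.

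Of 7 glucocorticoid receptor genes and targets, 1 rose, the receptor co-chaperone Fkbp5, from 336 ± 57.9 to 746 ± 92.0 (SD, n = 3; log2 difference 1.16; limma, adjusted p 0.0176). The call was lost without Control replicate 1, Control replicate 3, Sox9cKO replicate 1 or Sox9cKO replicate 3 (adjusted p up to 0.0757), and the block called Tsc22d3 lower as well. Nr3c1, the receptor itself, had a log2 difference of 0.30 (limma, adjusted p 0.296). Of 11 tested genes of the insulin, LXR and carbohydrate response, through which Angptl8 is induced in liver, none was called (limma; 3 at an unadjusted p under 0.05, 0 with edgeR and 2 with DESeq2). The block called Mlxipl and Scd1 higher. Scd1, a desaturase named after its values were seen, went from 141 ± 27.5 to 317 ± 75.2 (SD, n = 3; limma, adjusted p 0.0535; 0.0108 in the block fit). Fasn (log2 difference -0.17; limma, adjusted p 0.689) and Insr (-0.18; limma, adjusted p 0.530) were not called, with or without the block. The median log2 difference of these 3 lists was 0.22, -0.04 and 0.00.

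Other proteins with a fibrinogen-like domain included the largest called increase of the lists examined. Of 8 tested, 3 rose, the chains of the clotting protein fibrinogen, which hepatocytes secrete into plasma. Fgb read 67.2, 68.7 and 32.3 in Control and 603, 645 and 749 in Sox9cKO (log2 difference 3.62; limma, adjusted p 0.00319). Fga had a log2 difference of 3.00 (limma, adjusted p 0.00542) and Fgg of 2.87 (limma, adjusted p 0.00393). As for Angptl4, the hepatocyte marker sums beside these were 25054 to 38726 in Control and 47208 to 78331 in Sox9cKO, and their part was not tested. The other 5, from Fgl2 to the tenascins, did not pass the threshold.

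**Figure D5:**
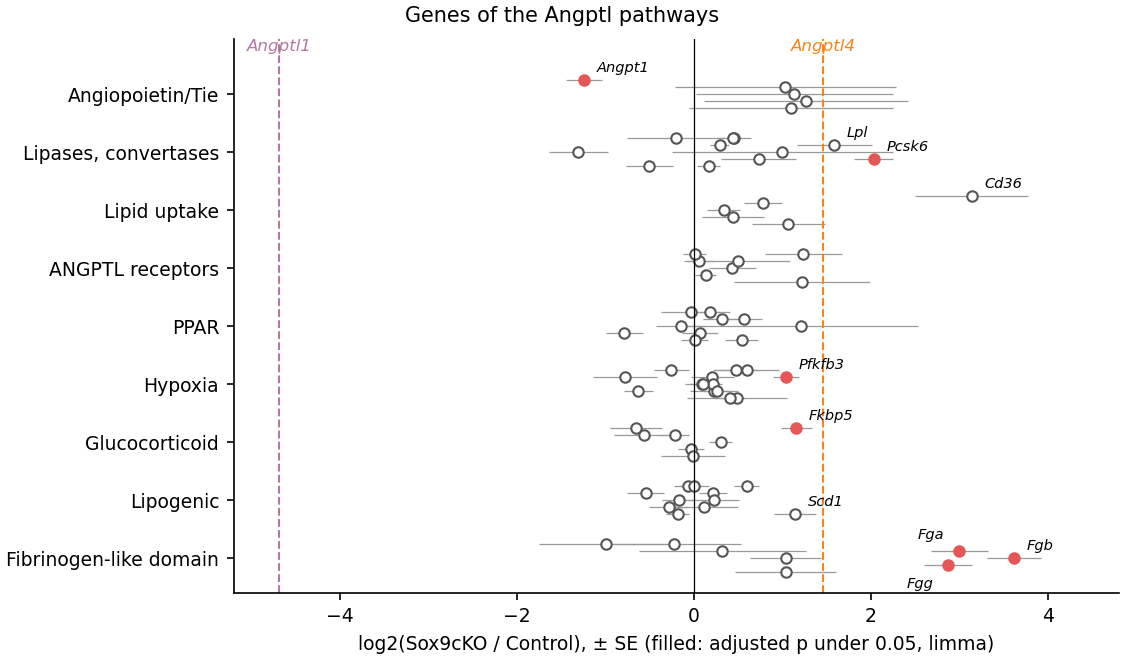
Log2 difference of each tested gene of 9 gene lists (points, with SE bars; filled where the limma adjusted p is under 0.05); dashed lines mark Angptl1 at -4.69 and Angptl4 at 1.46. No list gene lies as low as Angptl1, and Pcsk6, Lpl, Cd36 and the fibrinogen chains lie above Angptl4.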

How the data were processed

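The deposited table holds a signal, read counts of each gene that the authors divided by 1 factor per sample, as its values show. Dividing by the smallest step gave whole reads for 100% of values (tolerance 0.001). The submitters' processing notes name DESeq2 1.36.0 and GRCm39. The aligner, the counter, the annotation, strand use and molecular identifier use are not given in the sources used here. Libraries were made from total RNA after ribosomal RNA depletion with a stranded kit, per the labels' protocols. Libraries of a group differed by more than counting noise (chi-square over its degrees of freedom 18.3 to 40.1).

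Values were tested as log2(value + 1) with limma 3.58.1 in R 4.3.3 (intensity trend, two-sided, Benjamini-Hochberg, threshold 0.05) where the mean was at least 10. The code was tested on simulated data. On the recovered reads, edgeR 4.0.16 called 491 genes and DESeq2 1.42.0 was also run. Same-numbered samples, paired by the titles, deviated together (correlations 0.207, 0.472 and 0.542 over 17153 genes). Exon lengths came from GENCODE M21 on GRCm38 (99.2% of tested genes). The reference build differs from that of the table, so only the printed sequences have coordinates.

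Members and lists were chosen with earlier results of these data known, and some genes of the lists are not reported here. Named by rule were all members and Angptl7, Sox9, host genes, and up to 6 called and 2 abundant uncalled genes per list. The rule also took up to 3 called markers per list and the 3 nearest profiles. Others, among them Lpl, Cd36, Scd1, Alb and genes called only with the block, were chosen after their values were seen. The called markers not described in the report were Krt7 (log2 difference 0.997), a biliary keratin, Msln (2.01), a mesothelial surface protein, and Csf1r (0.92), a macrophage receptor, with limma adjusted p 0.0408, 0.0159 and 0.0142, and each was lost in 3 or more fits without a sample. Alternatives were TMM factors, quantile normalization, pseudocounts of 0.1 and 5, a filter at a mean of 50 or none, no trend, the replicate block, edgeR with and without it, DESeq2 and 6 fits without a sample.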

Additional observations from a re-analysis of the deposited data

How the results depend on the processing

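Across 17 alternatives (16 for Angptl6 and Angptl8, which a minimum mean of 50 removed), Angptl1 kept its direction, with log2 differences from -5.201 to -3.73, the latter with a pseudocount of 5. Angptl4 lay between 1.35 and 1.58, Angptl2 between -0.24 and -0.06, and Angptl6 between -1.18 and -0.78. Angptl8 lay between -0.35 and 0.33 and was below 0 with edgeR, with or without the block, with DESeq2 and without Control replicate 1 or Sox9cKO replicate 1. The number of genes called was 1381 with the replicate block, 1160 with edgeR and the replicate block and 1214 with DESeq2, each including all 510, and 200 to 389 when a sample was left out. When a sample was left out, signs changed for Ralgps2 (-0.20 to 0.12) and Tek (-0.0429 to 2.26). The cause was not tested. Beyond the calls named above and the count of genes called, the replicate block changed no call of a named gene. Depth limits Angptl6, at 8 to 26 reads per sample, and the Sox9cKO level of Angptl1, at 2 to 4 reads.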
